A study of Mus musculus with 3 samples.

Results

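The mRNAs of 10 factors that osteoclasts and their precursors are known to use in signalling to bone-forming cells and to blood vessels were followed through the apoptotic bodies (ABs) of 3 stages of the osteoclast lineage. They were Pdgfa, Pdgfb, Tgfb1, Vegfa, Vegfb, Sphk1, Sema4d, Efnb2, Igf1 and Hif1a. The genes were chosen by name, and every transcript in the deposited mRNA table whose GENCODE M21 gene symbol was one of these names was taken as a member. All 10 genes had rows, with 45 of the 56651 transcripts and 10 of the 15844 genes of the table. Reads of all transcripts of a gene were summed, and a transcript was called a main transcript when it held at least 10% of the reads of its gene in any library, which was met by 20 of the 45.

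The cells came from the bone marrow of C57BL/6 mice aged 11 weeks. Bone marrow macrophages (BMMs) were grown with M-CSF at 50 ng/ml for 72 h, and from them preosteoclasts (pOCs) with M-CSF at 30 ng/ml and RANKL at 100 ng/ml for 24 h and mature osteoclasts (mOCs) with the same agents for 72 h or longer. Per the labels, all 3 cultures, the BMMs included, then received alendronate at 500 μM for 12 h to form ABs, whereas the study's methods name staurosporine as the inducer and a longer RANKL treatment for mOCs. The labels name the cells and the series describes ABs, so the libraries were taken as BMM-ABs, pOC-ABs and mOC-ABs. There was 1 library per group. A difference between libraries can therefore not be compared with a spread between samples, no p-value is given, and all intervals are 95% exact binomial intervals of counting error only. The mRNA table held 9100082 reads from BMM-ABs, 7387317 from pOC-ABs and 7705592 from mOC-ABs, so that 3 reads were 0.330, 0.406 and 0.389 CPM, the reads of a gene per 1000000 reads of this table.

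Bone resorption and bone formation are coupled in time and place by factors that are released from the matrix, secreted by osteoclast-lineage cells or presented on their surface. PDGF-BB from preosteoclasts and VEGF act on vessel-forming cells, TGF-β1 and IGF-1 act on mesenchymal and bone-forming cells, sphingosine kinase 1 makes the lipid messenger sphingosine 1-phosphate, and ephrin-B2 and semaphorin 4D signal to osteoblasts through EphB4 and plexin-B1. HIF-1α is the oxygen-regulated transcription factor that drives Vegfa among many other genes. The mRNA level in an AB is not the level of the protein, and several of these factors are further regulated by splicing, processing and latency.

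Several of these genes make proteins with different ends by alternative splicing, and coding segments that set such forms apart are shown for 4 members, because the shares of reads on these forms are compared below. The sequences are from GENCODE M21 transcripts on GRCm38, written 5′ to 3′ on the coding strand. Capitals mark codons for the basic amino acids lysine and arginine that lie whole within the segment and in the reading frame of the transcript. The end of the long PDGF-A chain, chr5:138978638-138978690 on the minus strand, was coding in Pdgfa-201 and not in Pdgfa-202 or Pdgfa-204, and 11 of its 17 whole codons were basic. Such a basic tail is known to hold the long chain at the cell surface and matrix.
Pdgfa-201 end: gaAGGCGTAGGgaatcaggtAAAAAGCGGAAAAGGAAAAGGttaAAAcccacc
The exon of 132 bases that Vegfa-202 has and Vegfa-201 lacks, chr17:46020991-46021122 on the minus strand, had 9 basic codons of 43. It belongs to the heparin-binding part of the longer VEGF-A forms.
Vegfa-202 exon: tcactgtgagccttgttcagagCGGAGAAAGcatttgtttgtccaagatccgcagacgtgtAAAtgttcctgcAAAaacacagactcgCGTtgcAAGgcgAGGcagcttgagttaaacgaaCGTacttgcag
In Vegfb, both main transcripts read the bases of chr19:6985386-6985495 on the minus strand, but in different frames. The frame of Vegfb-202 gave 12 basic codons of 36 and that of Vegfb-201 gave 2 of 36, because Vegfb-201 holds 101 further coding bases just before them (chr19:6985496-6985596). The first of these forms is the heparin-binding VEGF-B and the second the more freely soluble one.
Vegfb-202 frame: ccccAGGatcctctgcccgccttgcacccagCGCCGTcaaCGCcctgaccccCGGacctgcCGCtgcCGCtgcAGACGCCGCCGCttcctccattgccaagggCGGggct
Vegfb-201 frame: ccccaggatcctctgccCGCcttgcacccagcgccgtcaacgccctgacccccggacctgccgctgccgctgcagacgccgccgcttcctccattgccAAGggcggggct
In Igf1, the 52 bases of chr10:87915298-87915349 on the plus strand were an exon of Igf1-203 and lay within exons of Igf1-201 and Igf1-206. They were absent from Igf1-202. Igf1-201 ends at 87915894, before Igf1-203 and Igf1-206 at 87931801 and 87930877, so the transcripts with these bases differ at their ends. The bases change the E peptide, the end of the precursor that is removed from mature IGF-1, and 7 of their 17 whole codons were basic.
Igf1-203 exon: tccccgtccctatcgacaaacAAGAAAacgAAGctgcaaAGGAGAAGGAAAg

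All comparisons were made in 3 pairs, pOC-ABs against BMM-ABs (G1), mOC-ABs against BMM-ABs (G2) and mOC-ABs against pOC-ABs (G3). The pairs share libraries and are not independent of each other. A gene was counted as past the 2-fold limit when its CPM ratio was above 2 or below 0.5 and the compared libraries held at least 20 reads of it together. By this rule, 0 of 8 members were higher and 1 of 8, Sema4d, was lower in G1, where 4.14% of all 12265 genes were higher and 5.64% lower. In G2, 0 of 9 members were higher and 1 of 9, Igf1, was lower, beside 3.7% of all 12234 genes higher and 8.39% lower. In G3, 1 of 8 members, Sema4d, was higher and 1 of 8, Igf1, was lower, beside 2.96% and 5.8% of all 12100 genes. With so few members, a share of 1 in 8 or 9 is not set apart from these backgrounds. The members had median log2 ratios of -0.39, 0.05 and 0.30 for G1 to G3, and all genes of -0.03, -0.05 and -0.04. The split of calls over all genes depended on the scaling. With the reads of the mRNA and lncRNA tables together as the library total, 24.2% of the genes past the limit in G1 were higher, against 42.3% with the mRNA total, and the median of all genes in G1 was -0.22.

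**Figure D1:**
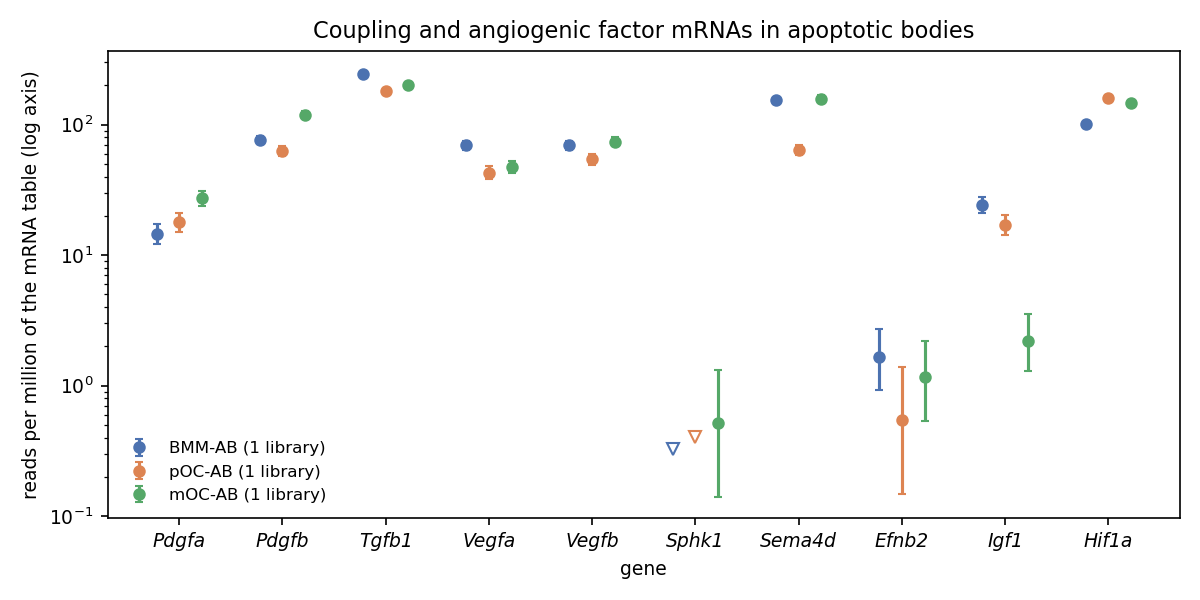
The CPM of each of the 10 genes (log axis) in the 3 libraries, with 95% exact binomial intervals. Open triangles mark the CPM of 3 reads where the count was 0. Pdgfa and Pdgfb were highest in mOC-ABs, Sema4d was lowest in pOC-ABs with 63.6 CPM, and Igf1 was lowest in mOC-ABs with 2.21 CPM.

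The libraries also differed by base composition and length over all genes, and these values stand beside the members because several members are rich or poor in G and C. Over genes with at least 50 reads in each library, the median log2 ratio in G1 ran from 0.36 in 382 genes with at most 40% GC to -0.21 in 2008 genes with 55 to 60% GC, and in G3 from -0.41 to 0.09. In G1 it ran from 0.32 in 1094 genes with transcripts of at most 1000 bases to -0.20 in 1720 genes with transcripts above 5000 bases. For the 8 members with at least 20 reads in each pair, the median of the 500 genes nearest in GC content is therefore given where it lies beyond 0.1 on the log2 scale in either direction. Their part in the members' ratios was not tested.

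The labelled cell types were checked against their markers. Of 12 osteoclast markers, 11 had rows, and Calcr had none. Their summed CPM was 592 from BMM-ABs, 889 from pOC-ABs and 2704 from mOC-ABs. Acp5, the gene of TRAP, was at 9.67, 39.5 and 280 CPM. Ctsk, the collagen-degrading protease, was at 19.8, 23.1 and 130 CPM, also highest in mOC-ABs. The osteoclast integrin gene Itgb3 went against this with 6, 3 and 0 reads. So did Clcn7, the gene of a chloride transporter used in acid secretion, at 85.4, 49.5 and 76.2 CPM, with a log2 ratio of -0.79 (-0.97 to -0.60) for pOC-ABs over BMM-ABs. The summed CPM of 9 macrophage markers was 2890, 1550 and 1436. Markers of other cell types were low in all 3 libraries, and their part in the members' values was not tested. Of 9 megakaryocyte and platelet markers, 3 had rows, and they summed to 3.08, 1.49 and 1.43 CPM. Of 8 endothelial markers, 4 had rows and summed to 16.9, 10.6 and 18.7 CPM, of which Vwf made up 14.4, 8.93 and 12.6 CPM, and the defining gene Cdh5 had 5, 3 and 0 reads. The other two were highest in mOC-ABs, with 3, 1 and 9 reads for Pecam1 and 1.65, 1.08 and 4.93 CPM for Kdr. Of 9 osteoblast and stromal markers, 5 had rows and summed to 5.71, 5.41 and 3.89 CPM, of which Runx2 made up 3.41, 4.87 and 2.08 CPM. Sp7 was highest in mOC-ABs with 2, 3 and 9 reads. Pdgfrb had 14, 1 and 3 reads, Col1a2 had 2, 0 and 2, and Cxcl12 had 3, 0 and 0. Of 8 granulocyte and lymphocyte markers only Cd79a had a row, with 2, 1 and 0 reads. In these bulk samples, fewer ABs of one kind and less RNA of a gene per AB cannot be told apart.

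The PDGF genes encode the A and B chains, which join to dimers and act through PDGF receptors on mesenchymal cells and pericytes. Pdgfb (chr15:79995874-80014977) had 696 reads from BMM-ABs, 462 from pOC-ABs and 920 from mOC-ABs, which was 76.5 CPM (70.9 to 82.4), 62.5 CPM (57.0 to 68.5) and 119 CPM (112 to 127). The mOC-AB library was the highest and its interval did not overlap those of the others. The log2 ratio was -0.29 (-0.46 to -0.12) in G1, 0.64 (0.50 to 0.79) in G2 and 0.93 (0.77 to 1.10) in G3, just inside the 2-fold limit. Of all genes, 3.34% had a higher ratio in G3 and 8.14% in G2. In G1 the 500 genes nearest in GC content to Pdgfb, whose transcript has 60.0% GC, had a median of -0.21, and in G2 of -0.12. All reads were on Pdgfb-201, the 1 transcript of 4 annotated that had a row.

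Pdgfa (chr5:138976014-138997370) had 132 reads from BMM-ABs, 132 from pOC-ABs and 210 from mOC-ABs, or 14.5 CPM (12.1 to 17.2), 17.9 CPM (15.0 to 21.2) and 27.3 CPM (23.7 to 31.2). As for Pdgfb, mOC-ABs were highest, while the intervals of BMM-ABs and pOC-ABs overlapped. The log2 ratio was 0.30 (-0.06 to 0.66) in G1, 0.91 (0.59 to 1.24) in G2 and 0.61 (0.29 to 0.93) in G3. In G1 the 500 genes nearest in GC content had a median of -0.16. The lncRNA table lists 6330403L08Rik on the other strand, from chr5:138995056 to 139000577, so that it overlaps the 5′ end of Pdgfa. It had 224, 85 and 177 reads, and whether the counting used the strand is not given in the sources used here. With all these reads added to Pdgfa, the log2 ratio in G1 was -0.41 and in G2 0.36. The starts of Pdgfa-201 and Pdgfa-202, at 138994953 and 138995037, lie outside this locus, while Pdgfa-204 and Pdgfa-206 reach into it. How many of its reads lie in the shared stretch is not given, so the addition cannot decide the direction in G1. That direction is not settled in any case, as the interval of Pdgfa in G1 held 0.

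The transcripts of Pdgfa differed far more than its total. Pdgfa-201, with the basic end shown above, had 81 reads from BMM-ABs, 2 from pOC-ABs and 104 from mOC-ABs. Pdgfa-202, which ends without it, had 10, 105 and 59 reads, and Pdgfa-204, which also lacks it, had 28, 16 and 28. The long form thus held 68.1% (58.9 to 76.3) of the reads on protein-coding Pdgfa transcripts in BMM-ABs, 1.63% (0.198 to 5.75) in pOC-ABs and 54.5% (47.1 to 61.7) in mOC-ABs. The leading transcript was Pdgfa-201 in BMM-ABs and mOC-ABs and Pdgfa-202 in pOC-ABs, also when shares of FPKM were taken in place of shares of reads. Such changes were common in these tables. Among 6874 genes with at least 100 reads in each library and at least 2 listed transcripts, 24.5% had another leading transcript in 1 of the libraries and 30% had a transcript whose share moved by 25 percentage points or more. Of the 6 members in this set, 1, Pdgfa, had another leading transcript and 2, Pdgfa and Sema4d, had a share that moved by at least 25 points. The long and short forms share most of their bases, and how reads on shared exons were divided is not given in the sources used here.

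**Figure D2:**
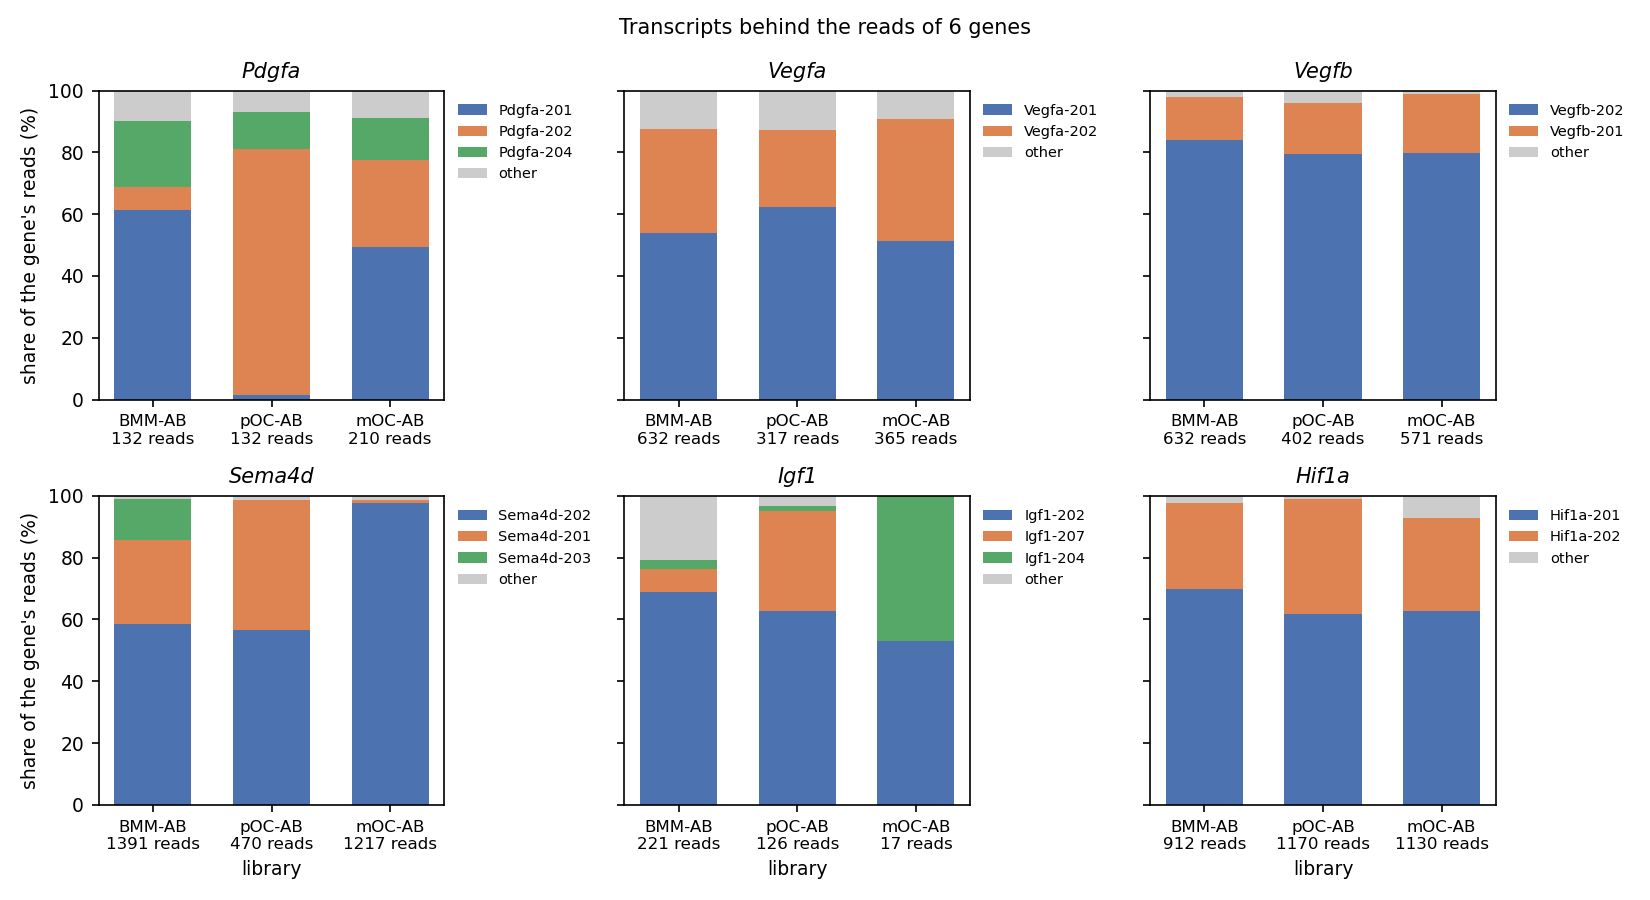
The share of reads (percent) on each main transcript of 6 genes in the 3 libraries, with the number of reads of the gene under each bar. The columns of Pdgfa differ most, with Pdgfa-201 at 61.4%, 1.52% and 49.5%, and in Sema4d the transcript Sema4d-202 reaches 97.8% in mOC-ABs.

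VEGF-A is the main driver of vessel growth, and VEGF-B binds the receptor FLT1. Vegfa (chr17:46016993-46032369) had 632 reads from BMM-ABs, 317 from pOC-ABs and 365 from mOC-ABs, which was 69.4 CPM (64.1 to 75.1), 42.9 CPM (38.3 to 47.9) and 47.4 CPM (42.6 to 52.5). BMM-ABs were highest, and the intervals of pOC-ABs and mOC-ABs overlapped. The log2 ratio was -0.69 (-0.89 to -0.50) in G1, -0.55 (-0.74 to -0.36) in G2 and 0.14 (-0.08 to 0.36) in G3. The 500 genes nearest in GC content had medians between -0.04 and 0.03 in the 3 pairs, and relative to them Vegfa was at -0.65 in G1 and -0.53 in G2. Its leading transcript was Vegfa-201, without the heparin-binding exon, with 340, 198 and 187 reads, followed by Vegfa-202 with 214, 79 and 144 reads. Transcripts with that exon held 39.0% (35.0 to 43.2), 28.8% (23.6 to 34.4) and 43.0% (37.7 to 48.5) of the protein-coding reads. The share was lowest in pOC-ABs, whose interval did not overlap the others. As for every member with several transcripts, these were reads assigned to transcripts. How reads on shared exons were divided is not given in the sources used here, and the intervals do not cover it.

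Vegfb (chr19:6982473-6987651) had 632 reads from BMM-ABs, 402 from pOC-ABs and 571 from mOC-ABs, or 69.4 CPM (64.1 to 75.1), 54.4 CPM (49.2 to 60.0) and 74.1 CPM (68.1 to 80.4). The pOC-AB library was lowest, and the other two overlapped. The log2 ratio was -0.35 (-0.54 to -0.17) in G1, 0.09 (-0.07 to 0.26) in G2 and 0.45 (0.26 to 0.63) in G3, and the 500 genes nearest to its 61.9% GC had medians of -0.21 in G1 and -0.10 in G2. The form read in the basic frame, Vegfb-202, led in all 3 libraries with 530, 320 and 455 reads. The soluble form Vegfb-201 held 14.2% (11.6 to 17.2), 17.1% (13.5 to 21.2) and 19.3% (16.1 to 22.8) of the coding reads, with overlapping intervals.

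Hif1a (chr12:73901375-73947530) had 912 reads from BMM-ABs, 1170 from pOC-ABs and 1130 from mOC-ABs, which was 100 CPM (93.8 to 107), 158 CPM (149 to 168) and 147 CPM (138 to 155). It was lowest in BMM-ABs, and among the members with at least 20 reads in G1 it was the only one whose interval lay above 0, with a log2 ratio of 0.66 (0.53 to 0.79). In G2 the ratio was 0.55 (0.42 to 0.68) and in G3 -0.11 (-0.23 to 0.01). The Hif1a transcript is poor in GC (41.3%), and the 500 genes nearest to it had a median of 0.24 in G1 and -0.26 in G3. Relative to these genes the Hif1a value was 0.42 in G1 and 0.15 in G3, so the direction in G3 turned. Vegfa, a known target of HIF-1α, was lower in both G1 and G2. Hif1a-201 held 70.0% (66.9 to 72.9), 61.6% (58.8 to 64.4) and 62.7% (59.8 to 65.6) of the reads. The other main transcript, Hif1a-202, had 254, 438 and 339 reads and was past 2-fold higher in G1, with a log2 ratio of 1.09 (0.86 to 1.32). This interval held the 2-fold limit, and 35% of all 30575 transcripts were past 2-fold in either direction in G1. The short Hif1a-203, whose coding part has 774 bases against 2508 in Hif1a-201, was below the limit for main transcripts with 11, 5 and 78 reads, and was singled out after its values were seen.

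Tgfb1 (chr7:25687002-25705077), the gene of the latent factor that resorption activates in bone matrix, was the most abundant member. It had 2206 reads from BMM-ABs, 1328 from pOC-ABs and 1550 from mOC-ABs, or 242 CPM (232 to 253), 180 CPM (170 to 190) and 201 CPM (191 to 211). BMM-ABs were highest and pOC-ABs lowest. The log2 ratio was -0.43 (-0.53 to -0.33) in G1, -0.27 (-0.36 to -0.17) in G2 and 0.16 (0.05 to 0.27) in G3. The 500 genes nearest to its 62.5% GC had medians of -0.20, -0.10 and 0.09 in these pairs, and relative to them Tgfb1 was at -0.23, -0.17 and 0.07. Tgfb1-201 held 97.1% to 97.4% of the reads in all 3 libraries.

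Igf1 (chr10:87858265-87937042), the growth factor of osteoblasts and many other cells, was the member with the widest range. It had 221 reads from BMM-ABs, 126 from pOC-ABs and 17 from mOC-ABs, which was 24.3 CPM (21.2 to 27.7), 17.1 CPM (14.2 to 20.3) and 2.21 CPM (1.29 to 3.53). The 3 intervals did not overlap, and the order followed the stages of the cells. Igf1 was 11.0-fold lower in mOC-ABs than in BMM-ABs, with a log2 ratio of -3.46 (-4.27 to -2.75), and 7.73-fold lower than in pOC-ABs, with -2.95 (-3.78 to -2.21). Of all genes, 0.47% had a lower ratio in G2 and 0.42% in G3. In G1 the ratio was -0.51 (-0.84 to -0.19), while the 500 genes nearest to its 38.0% GC had a median of 0.33. The 500 genes nearest in length had a median of -0.23 in G1, within that interval, and relative to them Igf1 was at -0.28. In G3 the genes nearest in GC content had a median of -0.39, and relative to them Igf1 was at -2.56.

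Transcripts with the 52 bases of Igf1 shown above held 46 of 221 reads in BMM-ABs, 20.8% (15.7 to 26.8), and 4 of 126 in pOC-ABs, 3.17% (0.872 to 7.93). In mOC-ABs they held 0 of 17 reads, with an interval of 0 to 19.5% that overlapped that of BMM-ABs. The difference from BMM-ABs was therefore not detectable at this depth in mOC-ABs, while the intervals of BMM-ABs and pOC-ABs did not overlap. Of the reads on transcripts with the 52 bases, Igf1-201, which ends before Igf1-203 and Igf1-206, had 19, 4 and 0. By reads, Igf1-202 led among all Igf1 transcripts with 152, 79 and 9. Igf1-207, which codes for 459 bases as Igf1-202 does, had 17, 41 and 0 reads, and Igf1-204 had 6, 2 and 8. Which transcript led depended on the unit. By shares of FPKM, Igf1-207 led in pOC-ABs with 67.1% against 25.5% for Igf1-202, and Igf1-204 led in mOC-ABs with 82.3% against 17.7%. The share with the 52 bases depended on the unit too. In BMM-ABs, Igf1-206, Igf1-201 and Igf1-203 held 28.4%, 10.9% and 10.3% of the FPKM, against 28.4% for Igf1-202. Of the transcripts with the 52 bases, only Igf1-201 had FPKM in pOC-ABs, with a share of 3.97%.

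Sema4d (chr13:51685529-51793747), the gene of the semaphorin by which osteoclasts restrain osteoblasts, had 1391 reads from BMM-ABs, 470 from pOC-ABs and 1217 from mOC-ABs. This was 153 CPM (145 to 161), 63.6 CPM (58.0 to 69.6) and 158 CPM (149 to 167). It was low in pOC-ABs alone, and BMM-ABs and mOC-ABs overlapped. Sema4d was 2.40-fold lower in G1, with a log2 ratio of -1.26 (-1.42 to -1.11), and 2.48-fold higher in G3, with 1.31 (1.16 to 1.47). In G2 it was 0.05 (-0.07 to 0.16). Of all genes, 2.98% had a lower ratio in G1 and 1.78% a higher one in G3. The 500 genes nearest in GC content had medians of -0.12 and 0.04 in these pairs, and those nearest in length -0.15 and 0.04.

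BMM-ABs and mOC-ABs, near equal in total Sema4d reads, differed in the transcripts to which these were assigned. The 3 main transcripts have the same coding part of 2583 bases and differ in their non-coding first exons. How reads on the shared part were divided among them is not given in the sources used here, so the values below are reads assigned to transcripts and not reads counted at a start. Sema4d-201 and Sema4d-203 start at 51793747 and 51793673, and Sema4d-202 starts 58984 bases further along the gene, at 51734763. The transcripts from the upstream starts had 561, 198 and 11 reads, or 61.6 CPM (56.7 to 67.0), 26.8 CPM (23.2 to 30.8) and 1.43 CPM (0.713 to 2.55). The transcript from the downstream start had 814, 266 and 1190 reads, or 89.4 CPM (83.4 to 95.8), 36.0 CPM (31.8 to 40.6) and 154 CPM (146 to 163). In G1 both were lower by about the same amount, with log2 ratios of -1.20 (-1.44 to -0.97) for the upstream and -1.31 (-1.52 to -1.11) for the downstream start. In G2 they went apart, with -5.43 (-6.44 to -4.58) for the upstream and 0.79 (0.66 to 0.92) for the downstream start. The transcripts from the upstream starts thus held 40.8% (38.2 to 43.5), 42.7% (38.1 to 47.3) and 0.916% (0.458 to 1.63) of the reads on the 3 transcripts. Sema4d-203 alone had 185 reads in BMM-ABs and 0 in the others. With 3 reads set in place of 0, it was 50.1-fold lower in G1 and 52.2-fold lower in G2. The intervals of its log2 ratios had upper ends of -5.33 in G1 and -5.39 in G2.

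The remaining members were close to the limit of detection. Efnb2 (chr8:8617434-8661242), the gene of ephrin-B2, had 15, 4 and 9 reads, or 1.65 CPM (0.923 to 2.72), 0.541 CPM (0.148 to 1.39) and 1.17 CPM (0.534 to 2.22). Its log2 ratio was -0.50 (-1.87 to 0.79) in G2, and the intervals in G1 and G3 also held 0. Of these reads, 9, 3 and 3 were on Efnb2-203, a transcript with a retained intron, and the other 6, 1 and 6 on Efnb2-201. Sphk1 (chr11:116530925-116536674), the gene of sphingosine kinase 1, had 0 reads from BMM-ABs, 0 from pOC-ABs and 4 from mOC-ABs, the last being 0.519 CPM (0.141 to 1.33) and all on Sphk1-203. The intervals of the 0 counts reached up to 0.405 CPM in BMM-ABs and 0.499 CPM in pOC-ABs, both within the interval of mOC-ABs, so a difference was not detectable at this depth.

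**Figure D3:**
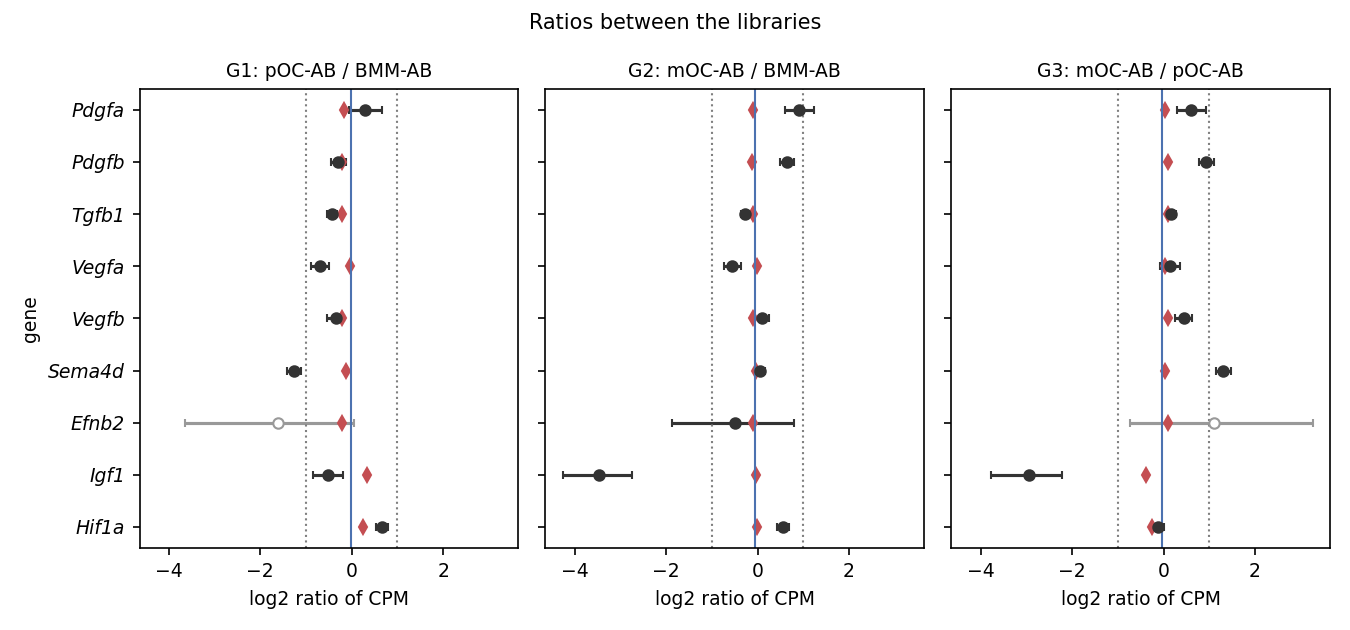
Log2 ratios of CPM for 9 genes in G1, G2 and G3 with 95% exact binomial intervals (counting error only). Open grey points have under 20 reads in the pair, dotted lines mark the 2-fold limit, the blue line is the median of all genes and red diamonds are the medians of the 500 genes nearest in GC content. Sema4d lies past the limit in G1 and G3 and Igf1 in G2 and G3, and Sphk1 is not drawn because 2 of its libraries had 0 reads.

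Counted by transcript, 9 of 21 member transcripts with at least 20 reads in the pair were past 2-fold in G1, 7 of 22 in G2 and 9 of 21 in G3. Over all transcripts the shares were 35%, 36.5% and 33%. Levels of different genes were set side by side by FPKM, reads scaled by transcript length and library total, summed over the transcripts of a gene. In BMM-ABs the order was Tgfb1 at 113 FPKM, Vegfb at 61.2, Sema4d at 36.6, Vegfa at 33.0, Pdgfb at 26.2, Hif1a at 23.7, Pdgfa at 11.4, Igf1 at 8.33 and Efnb2 at 0.489 FPKM. In pOC-ABs Hif1a was the third at 36.1 FPKM and Sema4d followed Vegfa at 15.3 FPKM, and Pdgfb and Vegfa, at 21.4 and 19.5 FPKM, did not differ beyond counting error. In mOC-ABs Pdgfb was the third at 40.9 FPKM, and neither its gap to Sema4d at 37.9 FPKM nor that from Sema4d to Hif1a at 36.2 FPKM was beyond counting error. Tgfb1 and Vegfb were first and second in all 3 libraries.

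Receptors, partners and targets of the members were followed with 8 gene lists, of which 92 of 138 genes had rows in the mRNA table. In G1, 2 of 72 genes with at least 20 reads were past 2-fold higher and 15 of 72 lower, in G2 8 and 10 of 73, and in G3 8 and 6 of 71, to be read against the shares of all genes given above. The medians of their log2 ratios were -0.52, -0.32 and 0.06. For each of these genes the median of the 500 genes nearest in GC content was taken, and the middle of these values was -0.07, -0.03 and 0.04. The corresponding values for length were -0.10, -0.10 and -0.01.

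Of the PDGF and VEGF family and its receptors, 1 of 6 genes was past 2-fold higher in G1 and 0 lower, and 2 were higher and 1 lower in both G2 and G3. Vegfc, best known as a lymphatic growth factor, had 10 reads from BMM-ABs, 59 from pOC-ABs and 137 from mOC-ABs, with log2 ratios of 2.86 (1.88 to 3.99) in G1 and 4.02 (3.09 to 5.11) in G2. Kdr, the gene of the main VEGF receptor and also one of the endothelial markers above, had 15, 8 and 38 reads, with 1.58 (0.69 to 2.55) in G2. The co-receptor genes went different ways, with Nrp1 at 11.5, 6.77 and 2.98 CPM and the abundant Nrp2 at 655, 357 and 580 CPM. For Nrp1 the log2 ratio in G2 was -1.95 (-2.67 to -1.29), and for Nrp2 it was -0.17 (-0.23 to -0.12).

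In the list of TGF-β ligands, latency proteins, receptors and signal, 0 of 11 genes were past 2-fold higher and 3 lower in G1, 3 of 13 were higher and 1 lower in G2, and 1 of 12 was higher and 1 lower in G3. Nrros, which anchors latent TGF-β1 on macrophage-like cells, had 382, 97 and 687 reads, low in pOC-ABs as Sema4d was, with log2 ratios of -1.68 (-2.01 to -1.35) in G1 and 2.76 (2.45 to 3.09) in G3. Ltbp4, a matrix protein that binds latent TGF-β, had 36, 19 and 6 reads. The receptor gene Tgfbr2 was at 264, 122 and 172 CPM, with -1.12 (-1.23 to -1.01) in G1.

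Around sphingosine 1-phosphate, 0 of 7 genes were past 2-fold higher in any pair, and 3, 1 and 1 were lower in G1, G2 and G3. The receptor gene S1pr1, which guides the traffic of osteoclast precursors, had 315, 81 and 16 reads and was 16.7-fold lower in G2, with a log2 ratio of -4.06 (-4.88 to -3.34). S1pr2 was at 55.1, 23.6 and 33.4 CPM. Sphk2, a further sphingosine kinase gene named here after its values were seen, was at 93.4, 67.7 and 91.6 CPM, unlike Sphk1. The degrading lyase gene Sgpl1 was at 177, 79.2 and 129 CPM and the exporter gene Abcc1 at 205, 107 and 166 CPM, both lowest in pOC-ABs.

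Among semaphorins and plexins, 0 of 8 genes were past 2-fold higher and 2 lower in G1, 0 higher and 1 lower in G2, and 1 higher and 0 lower in G3. Plxnb2, a semaphorin receptor gene, had 8711, 2944 and 4508 reads, with -1.26 (-1.32 to -1.20) in G1, close to the value of Sema4d. Sema4a was at 195, 86.1 and 105 CPM and Sema4b at 50.8, 28.4 and 59.8 CPM. Of the ephrins and Eph receptors, 6 of 12 genes had rows and 3 had enough reads. Epha2 led them with 165, 83 and 53 reads, the 1 gene past 2-fold in G2, at -1.40 (-1.87 to -0.94).

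For IGF, 4 of 13 genes had rows and 3 had enough reads, of which 2 were past 2-fold lower in G1, 1 in G2 and 0 in G3. Igfbp4, an IGF-binding protein gene, had 795, 287 and 212 reads. In G2 its log2 ratio was -1.67 (-1.89 to -1.45), in the same direction as Igf1. The scavenging receptor gene Igf2r was at 345, 187 and 325 CPM, and Insr, the insulin receptor gene, at 66.2, 32.6 and 33.6 CPM.

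All 23 genes in the list of HIF partners, oxygen sensors and targets had rows. While Hif1a itself was lowest in BMM-ABs, 0 of 21 were past 2-fold higher in G1 and G2, and 3 were lower in G1 and 2 in G2, and in G3 1 of 20 was higher and 0 lower. The target genes Ndrg1, Slc2a1, which encodes the glucose transporter GLUT1, and Ankrd37 were all highest in BMM-ABs, at 618, 323 and 25.8 CPM. In G1 their log2 ratios were -0.75 (-0.81 to -0.68), -1.47 (-1.58 to -1.36) and -0.56 (-0.89 to -0.25). In G2 they were -1.23 (-1.31 to -1.16), -0.87 (-0.97 to -0.78) and -1.05 (-1.41 to -0.70). Other targets, named here after their values were seen, went both ways in G1. Higher within the 2-fold limit were Bnip3l at 0.71 (0.58 to 0.84), Bnip3 at 0.29 (0.18 to 0.41), Hmox1 at 0.19 (0.11 to 0.28) and Mxi1 at 0.16 (0.06 to 0.27). Lower were P4ha2 at -1.77 (-3.53 to -0.32), P4ha1 at -1.03 (-1.19 to -0.87), Ero1l at -0.84 (-0.96 to -0.72) and Kdm3a at -0.19 (-0.35 to -0.04). The 3 genes past 2-fold lower in G1 were Slc2a1, P4ha1 and P4ha2. The intervals of Pdk1, Adm and Ddit4 held 0. The medians of the list were -0.18 in G1 and -0.22 in G2.

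In the list of other factors reported to couple osteoclasts with osteoblasts or vessels, 14 of 29 genes had rows, and 1 was past 2-fold higher and 2 lower in G1, 3 higher and 2 lower in G2, and 3 and 3 in G3. Spp1, the gene of osteopontin, had the most reads, 12438, 4804 and 8410. Mmp9, a matrix protease gene that is also an osteoclast marker, had 8, 17 and 107 reads, and its log2 ratio in G2 was 3.98 (2.95 to 5.23). C3, the complement component, and its receptor gene C3ar1 were lower along the stages, with 123, 38 and 15 reads for C3 and 606, 273 and 102 for C3ar1.

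**Figure D4:**
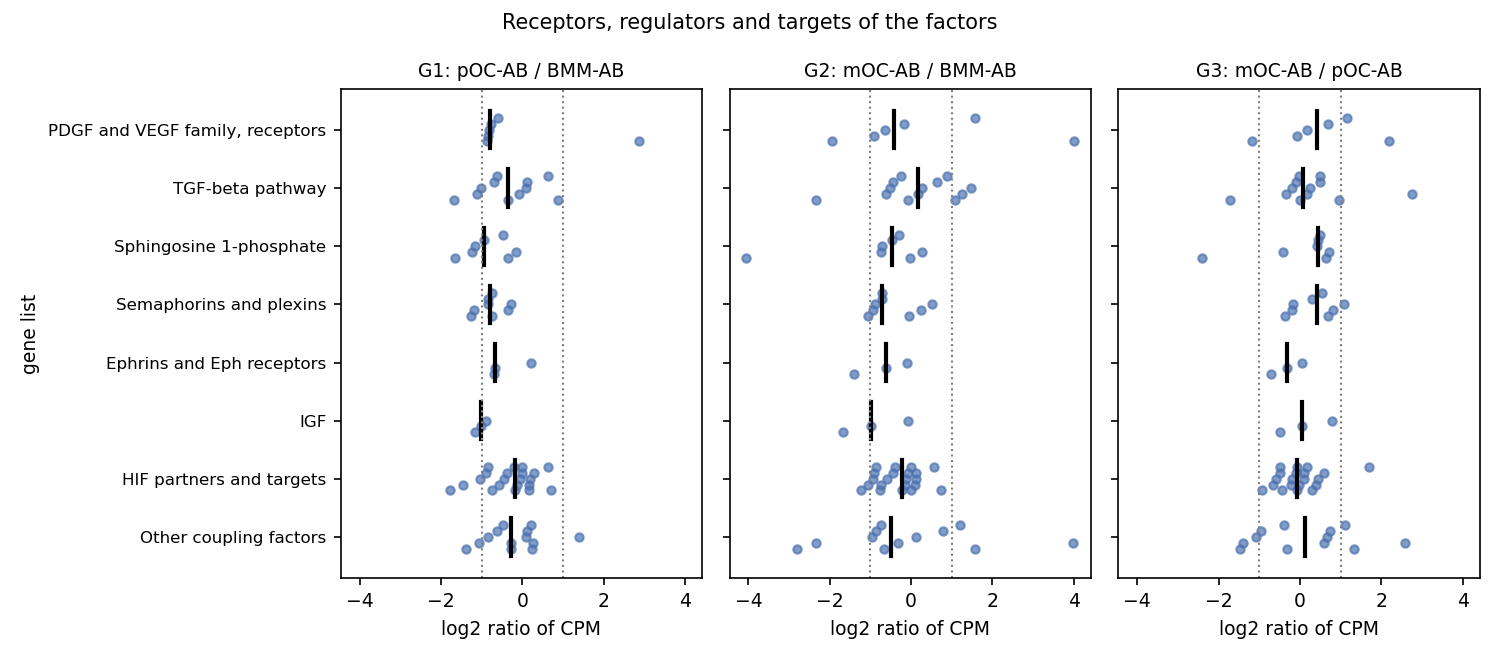
Log2 ratios of CPM in G1, G2 and G3 for the genes of the 8 lists with at least 20 reads in the pair. Each point is a gene, black bars are list medians and dotted lines mark the 2-fold limit. In G1 all 8 list medians lie below 0, with Vegfc far to the right at 2.86, and in G2 the lowest point is S1pr1 at -4.06.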

How the data were processed

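RNA-seq of 3 AB libraries, 1 per group, was analysed from 3 deposited tables. For each mRNA or lncRNA transcript the authors deposited a read count and FPKM, and for each circRNA a junction read count and SRPBM, a score scaled per library. FPKM in the mRNA table equals the count divided by transcript length and by the total of that table. The submitters' processing notes name FastQC, HISAT2, StringTie and GRCm38, with no version or role. All per-sample columns carry a label, so 0 were left out. Transcripts were joined to GENCODE M21 by ID. In the mRNA table, 229 transcripts without a match held 0.152%, 0.138% and 0.129% of the reads and stayed in the totals.

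Counts were summed per gene and divided by the mRNA total. Ratios have Clopper-Pearson intervals, which treat reads as independent although they carry no molecular identifiers. Because no group has a replicate, no test was run. Scripts were tested on simulated counts. Tools were Python 3.11.15, scipy 1.17.1, R 4.3.3, edgeR 4.0.16 (TMM factors only) and DESeq2 1.42.0 (size factors only).

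The members and lists were chosen with earlier results of these data known. Named are all members and their main transcripts, and from each list the gene with the most reads and up to 3 with at least 50 reads and the largest ratio past 2-fold. Alternatives were other scalings, FPKM, protein-coding transcripts only, a pseudocount of 1 CPM, other minimums of reads, overlapping lncRNA loci added, and shares of FPKM. The comparisons with genes nearest in GC content or length, the counts of leading transcripts, the sums by Sema4d start and the shares of spliced segments were chosen after seeing the data.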

Additional observations from a re-analysis of the deposited data

How the results depend on the processing

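No paired analysis was possible because there is 1 library per group, and for the same reason no library could be left out. Under the 9 alternatives for the ratios, 25 values each, TMM, median-of-ratios size factors and a pseudocount of 1 CPM changed no direction. Values left their counting interval for 6 of 25 with the total of both tables, 6 with GC content and 3 with length. With lncRNA reads added 2 did, and with FPKM 1. Pdgfb in G1 ranged from -0.49 to -0.08 and Vegfb in G1 from -0.55 to -0.15, which their counting intervals do not cover. Values below 0.1 in size turned for Vegfb and Sema4d in G2 with the total of both tables (-0.01 and -0.05) and for Vegfb with length (-0.01). Hif1a in G3 turned with FPKM (0.00) and with GC content (0.15), Efnb2 in G2 with protein-coding transcripts only (0.24), and Pdgfa in G1 with FPKM (-0.10) and with lncRNA reads added (-0.41). Over these alternatives Sema4d ranged from -1.46 to -1.12 in G1 and from 1.27 to 1.41 in G3, and Igf1 from -3.56 to -2.98 in G2 and from -2.98 to -2.49 in G3. With the total of both tables, 2 members were over 2-fold higher in G3, Pdgfb (1.03) and Sema4d, and 1106 genes were lower in G1. With no minimum of reads, 2 members were lower in G1, 1 was higher in G2 and 3 were higher in G3, the additions being Efnb2 and Sphk1. Genes past the limit were 508 higher and 692 lower for G1, 453 and 1026 for G2, and 358 and 702 for G3. With no minimum they were 1392 and 1644, 1219 and 2163, and 1103 and 1909, and with a minimum of 100 reads 252 and 436, 248 and 643, and 177 and 340. Of 48 transcript shares, 24 lay outside their counting interval when taken from FPKM, which divides by length, with the largest gap of 40.3 points for Igf1-202. Below about 20 reads, as for Sphk1, Efnb2 and Igf1 in mOC-ABs, the depth sets the limit.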

Other observations

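In the circRNA table, 1 back-splice junction was assigned to a member, Tgfb1 (chr7:25694223-25697272). It had 3 junction reads from BMM-ABs, 0 from pOC-ABs and 0 from mOC-ABs, too few to compare the libraries. In the lncRNA table, 1 locus within Vegfa (chr17:46016997-46018672) had 54, 7 and 29 reads, and 3 loci within Sema4d had at most 10 reads in any library. Within Igf1, Igf1os had 2, 3 and 0 reads and another locus 12, 1 and 1. Vegfa also had 5 listed retained-intron or minor coding transcripts with at most 11 reads per library, while Vegfa-209, with retained introns, had 25, 5 and 15 reads and Vegfa-205, also with a retained intron, had 22, 18 and 6.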
